A study of Mus musculus with 2 samples.

Results

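The collagen genes of the mouse were followed through the cell types of the lower incisor. Every gene of the matrix whose symbol has the form Col, a number, a and a number was taken, which gave 44 genes of 31053. The animals were untreated C57BL/6 mice of 4 weeks, with no other genotype, treatment or age, so each comparison below is between cell classes of the same digest. Per the labels, the lower incisor was freed of jaw bone, its proximal end was cut off, and pulp was kept with its dental epithelium, and the tissue was dissociated in collagenase type I. Cells were counted by droplet single-cell RNA sequencing (10x Genomics 3′ v3) for a target of 10000 cells. The deposit is 1 unfiltered matrix of unique molecular identifiers (UMIs, each standing for 1 captured RNA molecule), and its 2 sample titles differ only in the lane, so it was treated as 1 sample. The number of animals behind it is not given in the sources used here. No difference below therefore has a replicate check, no test between classes was made, and intervals are exact 95% intervals that cover counting error only.

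Collagens are secreted or membrane-bound proteins built from chains that wind around one another into a triple helix. Fibrillar collagens form the cross-banded fibrils of dentin, pulp and bone, and fibril-associated collagens with interrupted helices (FACITs) sit on fibril surfaces. Type IV collagen forms the sheet of basement membranes, type VI forms beaded filaments around cells, and transmembrane collagens such as type XVII anchor epithelial cells. In the tooth, odontoblasts secrete type I collagen as the bulk of the dentin matrix, while ameloblasts, the enamel-forming epithelial cells, secrete a matrix that is not collagenous.

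After filtering, 4535 cells remained with a median of 5791 UMIs and 1875 detected genes per cell. Clusters were formed without the collagen genes and named from marker lists, which gave 2197 mesenchymal cells (48.4%), 769 epithelial cells (17.0%), 74 endothelial cells (1.63%), 1361 immune cells and 97 erythroid cells, and left 37 cells unnamed. The labels call the tissue dental mesenchyme. The 11 dental mesenchyme markers summed to 3873 CPM in the mesenchymal class and 74.1 in the epithelial class. They summed to 38.2 CPM in the endothelial, 75.5 in the immune and 517 in the erythroid class. All 10 endothelial markers were above 0 in the endothelial class (9434 CPM summed, against 11.9 to 35.3 CPM in the epithelial, mesenchymal and immune classes). Levels are given as CPM, the UMIs of a gene per 1000000 UMIs of a class. The chemistry reads RNA ends, so CPM is not divided by gene length. Immune cells, which make little collagen, and droplets of 1 to 20 UMIs are given beside the classes as the level of free RNA.

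Of the 44 genes, 35 had at least 30 UMIs over the mesenchymal, epithelial and endothelial classes. Col10a1, the type X chain of hypertrophic cartilage, and Col6a5 had 0 UMIs there, which allows up to 0.167 CPM in the mesenchymal class by the limit of 3 counts. Another 7 genes stayed below 30 UMIs: Col4a4 had 13, Col28a1 16, Col20a1 9, Col5a3 8, Col4a3 3, Col6a6 3 and Col19a1 2. Col4a3 and Col4a4, which assemble together in specialised basement membranes such as that of the kidney glomerulus, were too rare for a chain ratio.

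Collagen genes made up 1.37% of mesenchymal UMIs (1.36 to 1.38), 0.313% of endothelial UMIs (0.296 to 0.330) and 0.113% of epithelial UMIs (0.111 to 0.116). Immune cells stood at 0.0229%, erythroid cells at 0.0973% (0.0903 to 0.105) and droplets of 1 to 20 UMIs at 0.397%. Each class drew on different chains. In mesenchymal cells Col1a1, the main chain of type I collagen, gave 64.5% of collagen UMIs, Col1a2 11.5% and Col3a1 8.06%. In epithelial cells the first 3 were Col27a1 (29.5%), Col17a1 (21.3%) and Col9a3 (10.4%). Endothelial collagen UMIs came mostly from Col4a1 (48.9%) and Col4a2 (26.9%), with Col18a1 at 10.1%. By family, fibrillar chains gave 91.9% of collagen UMIs in mesenchymal, 50.9% in epithelial and 4.81% in endothelial cells. Basement membrane chains gave 0.872%, 4.27% and 76.0% in the same order, and transmembrane chains 0.525%, 22.0% and 3.52%.

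**Figure D1:**
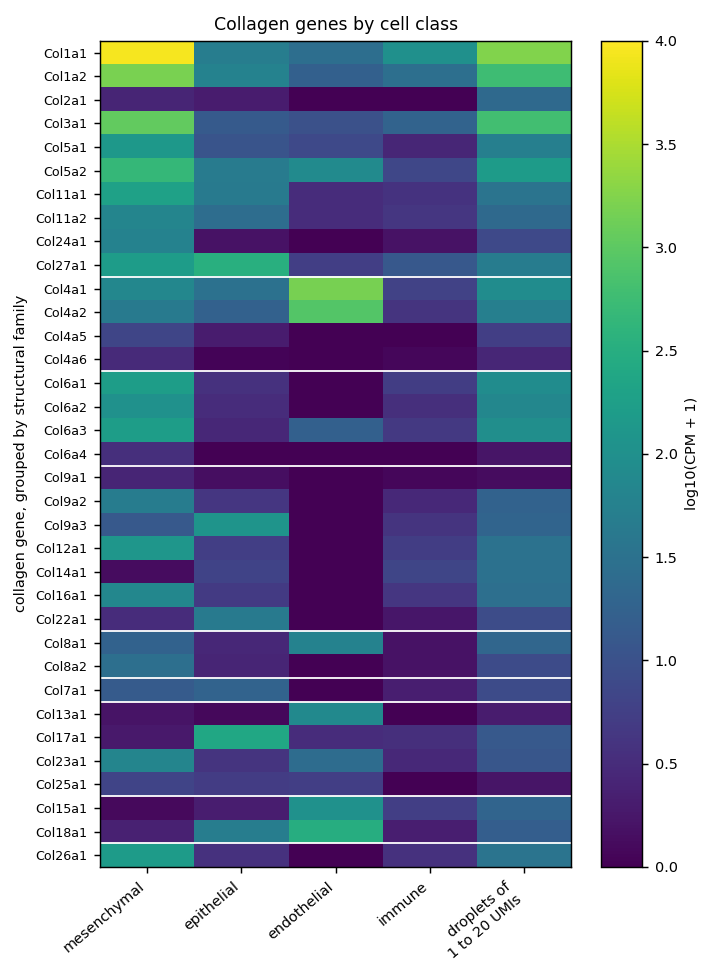
Level of the 35 collagen genes with at least 30 UMIs (rows, grouped by structural family) in 3 cell classes, in immune cells and in droplets of 1 to 20 UMIs, as log10(CPM + 1) by colour. Col1a1 is brightest in the mesenchymal column (8831 CPM), Col27a1 in the epithelial column (334 CPM) and Col4a1 in the endothelial column (1529 CPM).

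Mesenchymal cells carried more RNA of most collagen genes than epithelial cells. Genes were counted when both classes together held at least 30 UMIs, and called higher or lower from a 2-fold ratio of CPM. Of 33 collagen genes so measured, 24 were higher in mesenchymal cells, beside 20% of all 12918 measured genes, and 6 were lower, beside 10.6%. The share called higher among the collagen genes lay well above that of all genes, and the share called lower above it by less. Their median log2 ratio was 3.27, against 0.29 over all measured genes. Ameloblast markers reached a summed 193300 CPM among epithelial cells against 914 CPM in the mesenchyme, so a few enamel genes weighed on the epithelial total. With totals that left out the 5 genes above 1% of UMIs (Amelx, Ambn, Rpl41, mt-Co2 and mt-Atp6), every log2 ratio dropped by 0.30, 23 were higher, beside 15% of all genes, 6 were lower, beside 13.9%, and the median was 2.98.

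Of the fibrillar chains, 8 of 10 measured were higher in mesenchymal cells and 1 was lower. Col1a1 (chromosome 11, 94936224 to 94953042, plus strand, GRCm38) stood at 8831 CPM in mesenchymal, 47.8 in epithelial and 26.9 in endothelial cells, a log2 ratio of mesenchymal to epithelial cells of 7.53 (7.40 to 7.66). Immune cells had 103 CPM of Col1a1, so the epithelial and endothelial levels were no higher than in cells that should lack it. Col1a2, the other type I chain, stood at 1573, 58.2 and 15.7 CPM in the same order of classes, with 27.7 in immune cells (log2 4.76, 4.64 to 4.88). Col3a1, the type III chain of soft connective tissue and vessel walls, stood at 1104, 12.8 and 8.98 CPM against 18.0 in immune cells (log2 6.43, 6.18 to 6.69). Epithelial Col3a1 was thus below the immune level, and epithelial Col1a2 above it. Erythroid cells had 462 CPM of Col1a1, 194 of Col1a2 and 123 of Col3a1, each above the epithelial level. Their dental mesenchyme markers summed to 517 CPM and their dental follicle markers to 828 CPM. The part of that signal in the erythroid collagen levels was not tested.

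Type V and type XI chains join type I fibrils and limit their width. Col5a2 had 468 CPM in mesenchymal, 45.9 in epithelial and 80.8 in endothelial cells (mesenchymal over epithelial log2 3.35, 3.21 to 3.49). Col5a1 had 136, 10.1 and 6.73 CPM (log2 3.76, 3.47 to 4.06). Of the type XI chains, Col11a1 had 195 CPM in mesenchymal and 41.3 in epithelial cells (log2 2.24, 2.10 to 2.39), with 2.24 in endothelial cells. Col11a2 was closer between the classes, with 65.2, 26.0 and 2.24 CPM and a log2 ratio of 1.33 (1.13 to 1.52). Endothelial Col11a1 and Col11a2 each rest on 1 UMI, and Col5a1 on 3.

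The fibrillar chains Col24a1 and Col27a1 went opposite ways. Col24a1 had 57.9 CPM in mesenchymal cells, 0.591 in epithelial cells (6 UMIs) and 0 UMIs in endothelial cells (log2 6.61, 5.49 to 8.06). Col27a1, a chain known from cartilage and epithelia, had 161 CPM in mesenchymal and 334 in epithelial cells, which made it the single fibrillar chain called lower in mesenchymal cells (log2 -1.05, -1.12 to -0.98). Its endothelial level was 4.49 CPM. Col2a1, the cartilage chain, was near the detection limit at 1.56, 0.986 and 0 CPM, with droplets at 22.6 CPM, and passed neither call (log2 0.66, -0.42 to 1.87).

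Beaded filament chains were among the widest gaps between the classes, and all 4 measured were higher in mesenchymal cells. Col6a1 had 168 CPM there and 2.66 in epithelial cells (log2 5.98, 5.44 to 6.58), Col6a2 had 105 and 2.17 (log2 5.60), and Col6a3 had 166 and 1.77 (log2 6.55). Endothelial cells had 0 UMIs of Col6a1 and Col6a2, and 15.7 CPM of Col6a3. Col6a4 had 45 UMIs in mesenchymal cells (2.51 CPM) and 0 in both other classes, which is at least 8.48-fold higher than in epithelial cells by the floor of 3 counts over the class.

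The FACITs split between the classes, with 4 of 7 measured higher and 3 lower in mesenchymal cells. Col12a1 and Col16a1, which sit on type I fibrils and at tissue borders, had 125 and 70.3 CPM in mesenchymal against 4.53 and 3.75 CPM in epithelial cells (log2 4.78 and 4.23). Type IX collagen, a partner of cartilage fibrils made of 3 chains, was divided chain by chain. Col9a2 was higher in mesenchymal cells (47.7 against 3.25 CPM, log2 3.87), as was the rare Col9a1 (1.62 against 0.394 CPM, log2 2.03, 0.52 to 4.00). Col9a3 was lower there (12.0 against 117 CPM, log2 -3.29, -3.51 to -3.08). Col22a1, found at tissue junctions, was also lower in mesenchymal cells (2.17 against 43.8 CPM, log2 -4.33, -4.84 to -3.86). Col14a1 had 6 mesenchymal and 54 epithelial UMIs (0.334 and 5.32 CPM, log2 -3.99, -5.50 to -2.78), but immune cells had 5.88 CPM and droplets 30.5 CPM of it. None of the 7 had a UMI in the 74 endothelial cells, which allows up to 6.73 CPM for each.

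Col17a1, the hemidesmosome collagen that ties basal epithelial cells to their basement membrane, showed the largest ratio of the 33 in the epithelial direction. It had 242 CPM in epithelial cells (2453 UMIs), 0.891 in mesenchymal cells, 2.24 in endothelial cells and 2.47 in immune cells (log2 -8.08, -8.89 to -7.38). Thinned to 2000 UMIs per cell, so that depth no longer differs, 33.9% of 711 epithelial cells had a Col17a1 UMI (30.4 to 37.5), against 0.148% of 2032 mesenchymal and 0.325% of 923 immune cells. Before thinning, at median depths of 9304, 7007 and 2958 UMIs, the shares were 70.4%, 0.683% and 0.661%. Thinning left out 58 epithelial, 165 mesenchymal, 8 endothelial and 438 immune cells. Col18a1, a basement membrane proteoglycan core that releases endostatin, had 47.8 CPM in epithelial and 1.34 in mesenchymal cells (log2 -5.16, -5.82 to -4.57). Col27a1 was carried by 39.2% of thinned epithelial and 17.9% of thinned mesenchymal cells, beside 2.71% of immune cells (65.4%, 39.9% and 3.23% unthinned).

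**Figure D2:**
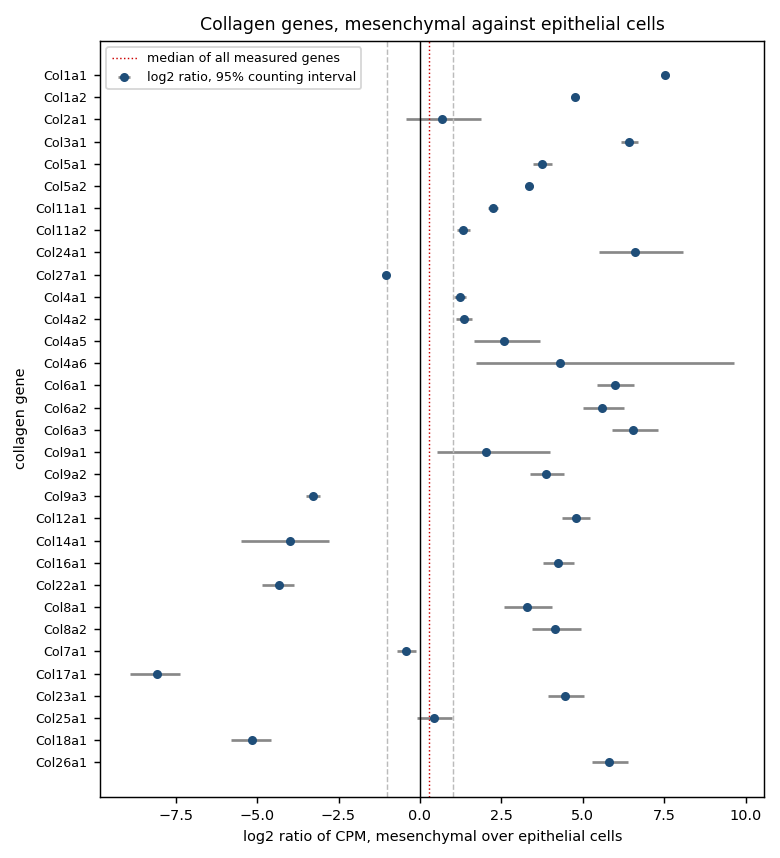
Log2 ratio of CPM in mesenchymal over epithelial cells (x axis) for 32 of the 33 measured collagen genes (y axis), with 95% counting intervals. Dashed lines mark 2-fold and the dotted line the median of all measured genes (0.29). Col6a4 is left out because epithelial cells had 0 UMIs. Points run from Col17a1 at -8.08 to Col1a1 at 7.53.

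The remaining groups were small. The short chains Col8a1 and Col8a2, which form hexagonal networks under endothelia, had 17.2 and 27.8 CPM in mesenchymal against 1.77 and 1.58 CPM in epithelial cells (log2 3.27 and 4.14). Col7a1, the anchoring fibril chain of stratified epithelia, was close between the classes at 13.3 and 17.8 CPM (log2 -0.42, -0.71 to -0.14) and passed neither call. Among the other transmembrane chains Col23a1 was higher in mesenchymal cells (64.8 against 2.96 CPM, log2 4.45), and Col25a1, a chain of neurons and muscle, passed neither call (5.63 against 4.14 CPM, log2 0.44, -0.09 to 1.00). Col26a1, a small secreted chain outside the main families, had 154 against 2.76 CPM (log2 5.81, 5.27 to 6.40), with 0 UMIs in endothelial cells.

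All 4 measured basement membrane chains were called higher in mesenchymal than in epithelial cells, but for Col4a1 and Col4a2 that rested on 1 cluster. Col4a1 (chromosome 8, 11198423 to 11312826, minus strand, GRCm38) had 69.0 CPM in mesenchymal, 29.6 in epithelial and 1529 in endothelial cells (mesenchymal over epithelial log2 1.22, 1.04 to 1.41, and 0.92 with reduced totals, below 2-fold). Col4a2 (chromosome 8, 11312805 to 11449287, plus strand) had 42.4, 16.7 and 842 CPM (log2 1.35, 1.11 to 1.60). Without the mesenchymal cluster led by Igf1, described among the mesenchymal clusters, the log2 ratios were -2.31 for Col4a1, -2.01 for Col4a2 and -0.11 for Col8a1, so that both type IV chains were lower in the remaining mesenchymal cells than in epithelial cells. Leaving that cluster out was chosen after seeing the data, and of the 31 genes then measured it gave 19 higher, beside 17.8% of all 12616 genes, and 7 lower, beside 12.0%. Col4a5 (5.90, 0.986 and 0 CPM, log2 2.58, 1.65 to 3.68) and Col4a6 (1.95, 0.0986 and 0 CPM, 1 epithelial UMI, log2 4.31, 1.73 to 9.65) encode the pair of chains of another basement membrane network.

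Col4a1 and Col4a2 encode the chains of the most widespread type IV collagen and are transcribed away from each other from a shared promoter. Their RefSeq start sites on GRCm38.p6 lie 21 bases apart on opposite strands of chromosome 8. Col4a1 starts at 11312826 (minus strand) and Col4a2 at 11312805 (plus strand), so the genes overlap there and each start lies inside the other gene. The windows run from 250 bases before to 50 bases after each start, and are shown because both genes were highest and lowest in the same classes. Capitals mark the 78 bases that both windows hold (chr8:11312777-11312854), each read 5′ to 3′ on its gene's own strand, Col4a1 from chr8:11312777-11313076 (minus strand) and Col4a2 from chr8:11312555-11312854 (plus strand).
Col4a1: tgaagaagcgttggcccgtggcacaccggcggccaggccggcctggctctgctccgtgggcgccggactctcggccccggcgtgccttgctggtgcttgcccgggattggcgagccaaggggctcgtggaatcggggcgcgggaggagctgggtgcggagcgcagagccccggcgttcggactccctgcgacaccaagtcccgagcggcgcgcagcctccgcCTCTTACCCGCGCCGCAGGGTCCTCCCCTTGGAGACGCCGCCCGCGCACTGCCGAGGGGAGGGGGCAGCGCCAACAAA
Col4a2: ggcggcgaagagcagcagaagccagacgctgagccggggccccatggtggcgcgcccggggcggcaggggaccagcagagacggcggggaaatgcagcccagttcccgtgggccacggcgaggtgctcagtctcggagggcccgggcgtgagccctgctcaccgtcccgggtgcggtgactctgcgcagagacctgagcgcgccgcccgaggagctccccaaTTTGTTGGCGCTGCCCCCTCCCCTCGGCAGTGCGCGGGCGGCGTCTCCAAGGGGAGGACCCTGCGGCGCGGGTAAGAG

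The ratio of Col4a1 to Col4a2 UMIs was 1.82 in endothelial (1.60 to 2.07), 1.62 in mesenchymal (1.48 to 1.78) and 1.78 in epithelial cells (1.47 to 2.16), with 1.72 in droplets. These intervals overlap, while the level of Col4a1 (CPM) differed by 51.7-fold between endothelial and epithelial cells.

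Endothelial cells carried mostly type IV chains and multiplexins, and low levels of the fibrillar chains. Of 31 collagen genes measured against mesenchymal cells, 6 were higher in endothelial cells, beside 18.0% of all 12269 measured genes, and 18 were lower, beside 17.0%. The share lower was above that of all genes, and the share higher was close to it. Col15a1 and Col18a1, the multiplexins of vessel basement membranes, had the largest ratios. Col15a1 had 103 CPM in endothelial (46 UMIs), 0.278 in mesenchymal and 1.08 in epithelial cells (endothelial over mesenchymal log2 8.53, 7.21 to 10.22). Col18a1 had 314 CPM in endothelial cells (log2 7.88, 7.25 to 8.57 over mesenchymal and 2.72, 2.43 to 2.99 over epithelial cells). Col13a1, a transmembrane chain of cell adhesions, had 78.6, 0.613 and 0.197 CPM in endothelial, mesenchymal and epithelial cells (log2 7.0, 5.99 to 8.13 over mesenchymal cells).

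The type IV chains were the most abundant. Col4a1 was 4.47 log2 units higher in endothelial than in mesenchymal cells (4.33 to 4.61) and Col4a2 4.31 units (4.13 to 4.49). Thinned, 84.8% of 66 endothelial cells had a Col4a1 UMI (73.9 to 92.5), against 9.45% of mesenchymal, 4.64% of epithelial and 0.975% of immune cells, and unthinned the shares were 94.6%, 16.7%, 18.3% and 1.84%. Col8a1 was the sixth gene called higher (58.4 against 17.2 CPM, log2 1.77, 1.13 to 2.35), but the mesenchymal Igf1 cluster had 105 CPM of it. Of the perivascular list, which marks the mural cells around vessels, 6 of 9 genes (Rgs5, Notch3, Cspg4, Kcnj8, Higd1b and Myh11) were at 0 in the endothelial class, and the list summed to 258 CPM.

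All 9 measured fibrillar chains were lower in endothelial than in mesenchymal cells. Col1a1 stood 8.36 log2 units lower (12 UMIs, log2 -8.36, -9.31 to -7.55), Col3a1 at -6.94 (4 UMIs) and Col1a2 at -6.65 (7 UMIs). Col5a2 was the fibrillar chain with the most endothelial UMIs, 36 of them (log2 -2.53, -3.05 to -2.06), and its 80.8 CPM stood above the 6.07 CPM of immune cells. Ratios on 1 to 3 endothelial UMIs were wide, as for Col11a1 (1 UMI, log2 -6.44, -11.75 to -3.97), Col11a2 (1 UMI, -4.86, -10.17 to -2.38), Col27a1 (2 UMIs, -5.17, -8.21 to -3.31) and Col5a1 (3 UMIs, -4.34, -6.62 to -2.79). Chains without an endothelial UMI were given a bound by the floor of 3 counts over the class. Col6a1 was at least 25-fold lower, Col26a1 at least 22.9-fold, Col12a1 at least 18.5-fold, Col6a2 at least 15.6-fold and Col16a1 at least 10.4-fold. The bounds were 8.59-fold for Col24a1, 7.08-fold for Col9a2 and 4.14-fold for Col8a2. Col23a1 had 24.7 CPM in endothelial cells and was lower there by log2 -1.39 (-2.40 to -0.55).

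Against epithelial cells 24 collagen genes could be measured in the endothelium. There were 7 higher, beside 22.3% of all 10944 measured genes, and 8 lower, beside 15.8%. The share lower lay above that of all genes. The share higher lay above it by less, and the count higher changed with the settings. The 7 were Col13a1 (log2 8.64, 6.68 to 11.74, with 2 epithelial UMIs), Col15a1 (6.57), Col4a1 (5.69), Col4a2 (5.66), Col8a1 (5.04), Col23a1 (3.06) and Col18a1 (2.72). Lower were Col17a1 (1 endothelial UMI, log2 -6.75, -12.06 to -4.27), Col27a1 (2 UMIs, -6.22, -9.26 to -4.36), Col11a1 (1 UMI, -4.20, -9.51 to -1.72), Col11a2 (1 UMI, -3.54, -8.84 to -1.04) and Col1a2 (7 UMIs, -1.89). Chains without an endothelial UMI were lower by their bounds, Col9a3 by at least 17.4-fold, Col22a1 by at least 6.50-fold and Col7a1 by at least 2.65-fold. With reduced totals the counts were 7, beside 16.4%, and 9, beside 21.2%, Col1a1 being the addition (log2 -1.12, from -0.83). Since 74 cells carried 445522 UMIs, several of these counts are small, and 3 genes were higher with at least 100 UMIs asked for. With the barcodes removed as doublets or haemoglobin-rich kept in, 13 were higher.

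Within the mesenchyme, 8 clusters differed in how much and which collagen they carried. Each cluster is called by its leading gene outside the collagen family, and 28 collagen genes with at least 30 mesenchymal UMIs were measured in each against all other mesenchymal cells. Of these 28, 27 were at least 2-fold higher in at least 1 cluster, beside 39.9% of all 12055 measured genes, and all 28 were lower in at least 1, beside 54.4%. The collagen genes were thus called in some cluster more often than all genes, in both directions. The cluster led by Igf1 was highest for 11 of the 28, those led by Dspp and Fmod for 6 each, that led by Cldn10 for 2, and those led by Sct, Lypd1 and Tac1 for 1 each. The collagen share of UMIs ran from 0.289% in the Lypd1 cluster to 11.4% in the Dspp cluster.

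The odontoblast-like cells fell into 2 clusters. In the Dspp cluster (22 cells, also led by Bglap, Ibsp, Bglap3 and Bglap2, of which Ibsp and Bglap2 are osteoblast markers), Dspp being the main non-collagen dentin matrix gene, collagen genes gave 11.4% of UMIs (11.3 to 11.6). Of the 28, 8 were higher there, beside 9.95% of all 12055 measured genes, and 12 lower, beside 18.5%. Col1a1 stood at 89568 CPM and Col1a2 at 17696 CPM (log2 3.57, 3.55 to 3.58, and 3.74, 3.70 to 3.79, over other mesenchymal cells). Col11a2 had the largest ratio (1551 CPM, log2 5.21, 5.03 to 5.38), followed by Col11a1 (2256 CPM, log2 3.79), and Col5a2 stood at 2216 CPM (log2 2.33). Col11a1, known best from cartilage, had as many UMIs here as Col5a2: the UMI ratio of Col11a1 to Col5a2 was 1.02 (0.909 to 1.14), against 0.418 over all mesenchymal cells. Lower chains were led by Col3a1 with 4 UMIs (log2 -6.28, -8.15 to -4.92) and by Col6a3 with 1 UMI (-5.55, -10.85 to -3.07). Col23a1 (1 UMI, -4.18, -9.49 to -1.70), Col9a2 (1 UMI, -3.74, -9.05 to -1.26) and Col12a1 (3 UMIs, -3.54, -5.82 to -1.99) followed.

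In the Sct cluster (408 cells, odontoblast-like, led by Sct, Ifitm5, Dkk1, Fam49a and Notum) collagen genes gave 2.23% of UMIs (2.21 to 2.24), with 4 of 28 higher, beside 5.76%, and 17 lower, beside 17.8%. Col24a1 had its highest level in this cluster, which held 94.4% of its mesenchymal UMIs (215 against 4.33 CPM in other mesenchymal cells, log2 5.64, 5.25 to 6.04). The smaller Dspp cluster came second, with 90.4 CPM of Col24a1 (25 UMIs in 22 cells). Col27a1 (431 CPM, log2 2.64), Col1a1 (19038 CPM, log2 1.83) and Col11a2 (136 CPM, log2 1.72) were the others. All 3 had a higher level in the Dspp cluster, Col27a1 by little (441 CPM). Col4a1 (9 UMIs, log2 -5.54), Col8a1 (3 UMIs, -5.11, -7.40 to -3.55), Col25a1 (1 UMI, -5.09, -10.41 to -2.58), Col3a1 (232 UMIs, -4.84) and Col8a2 (6 UMIs, -4.81) were the lowest. Osteoblast markers summed to 15491 CPM in the Dspp cluster against 833 CPM in the whole mesenchymal class, and their part in its result was not tested. Col3a1 UMIs were few beside Col1a1 UMIs in both odontoblast-like clusters, with 0.00267 (Sct) and 0.000161 (Dspp) Col3a1 UMIs per Col1a1 UMI. The Cldn10 cluster also had few, at 0.0119, while the other mesenchymal clusters lay between 0.110 (Ube2c) and 0.709 (Igf1).

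The Igf1 cluster (379 cells, dental follicle-like by raised Igf1, Sfrp2 and Ogn, led by Igf1, Ogn, Igfbp3, Tagln and Dpep1) held the broadest set. The 7 dental follicle markers summed to 4937 CPM there, 4663 CPM in the whole mesenchymal class and 6599 CPM in the Tac1 cluster. That sum thus did not set the Igf1 cluster apart. Collagen genes gave 2.55% of UMIs in the Igf1 cluster (2.54 to 2.57), with 14 of 28 higher, beside 15.2%, and 5 lower, beside 10.1%. Col4a1 (425 against 5.97 CPM, log2 6.15, 5.84 to 6.48), Col8a1 (105 CPM, log2 6.00), Col4a2 (259 CPM, log2 5.97), Col6a4 (15.2 CPM, log2 5.85, 41 UMIs) and Col3a1 (6373 CPM, log2 5.22, 5.16 to 5.28) had the largest ratios. The cluster held 92.6% of mesenchymal Col4a1 UMIs, 91.9% of Col8a1, 91.7% of Col4a2 and 86.9% of Col3a1. Lower were Col11a2 (4 UMIs, log2 -5.69), Col24a1 (8 UMIs, -4.51), Col22a1 (1 UMI, -2.75, -8.09 to -0.19), Col23a1 (-1.30) and Col9a3 (-1.24). Of these, Col11a2 and Col24a1 were called higher in an odontoblast-like cluster, while Col1a2 and Col5a2 were high in both the Dspp and the Igf1 cluster. Perivascular markers summed to 534 CPM in this cluster against 120 CPM in the whole mesenchymal class, with 1 of 9 (Higd1b) at 0, and their part in the result was not tested. At a finer resolution the cluster split into a group of 225 cells with 110 CPM of Rgs5 and 292 CPM of Col4a1, and a group of 154 cells with 0 Rgs5 UMIs and 608 CPM of Col4a1. Acta2, also on the perivascular list, stood at 383 CPM in the group with Rgs5 and 270.4 CPM in the group without it.

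The Fmod cluster (379 cells, unnamed, led by Fmod, Rdh10, Nell2, Sytl4 and Prss23) had less collagen RNA, 0.462% of UMIs, and a different set of chains. There 6 were higher, beside 4.3%, and 12 lower, beside 10.9%. Type IX chains stood out: Col9a3 had 65.6 against 4.09 CPM (log2 4.00, 3.57 to 4.45) and Col9a2 181 against 28.0 CPM (log2 2.69, 2.49 to 2.89). Col25a1 (26.5 CPM, log2 3.37), Col4a6 (13 UMIs, log2 2.01, 0.89 to 3.06) and Col4a5 (15.6 CPM, log2 1.81) followed, and Col23a1 was the sixth. Chondrocyte markers summed to 474 CPM here against 197 CPM in the whole mesenchymal class, with Comp and Matn1 at 0, and their part in the result was not tested. The lowest chains were Col24a1 (log2 -4.93), Col4a1 (-3.69), Col4a2 (-3.33), Col8a1 (-3.16) and Col26a1 (-2.48).

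The Cldn10 cluster (126 cells, unnamed, led by Cldn10, Slc20a2, Stbd1, Hey1 and Vim) had a collagen share of 0.954%, with 3 higher, beside 4.13%, and 9 lower, beside 12.5%. Col22a1 was higher there (21 UMIs, 21.9 CPM, log2 4.37, 3.39 to 5.37), as were Col12a1 (326 CPM, log2 1.52) and Col23a1 (131 CPM, log2 1.10). Col3a1 (log2 -3.99), Col8a2 (2 UMIs, -3.81, -6.86 to -1.95), Col4a1 (-3.11), Col4a2 (-3.09) and Col24a1 (-2.86) were lowest. Odontoblast markers summed to 1545 CPM in the Cldn10 cluster, against 3122 CPM in the Sct cluster and 1752 CPM in the whole mesenchymal class. Osteoblast markers summed to 1549 CPM there against 833 CPM in the whole class, and the part of these markers was not tested. In the Lypd1 cluster (337 cells, apical mesenchyme-like, led by Lypd1, Sostdc1, Emb, Foxd1 and Dlx6os1), Col8a2 alone was higher (92.4 CPM, log2 2.22, 1.95 to 2.49), beside 2.15% of all genes, and 17 were lower, beside 11.5%. Its lowest chains were Col11a2 (3 UMIs, log2 -5.60, -7.88 to -4.05), Col24a1 (3 UMIs, -5.43, -7.71 to -3.88), Col4a2 (3 UMIs, -4.98, -7.26 to -3.43), Col4a1 (-4.68) and Col1a1 (1275 CPM, -2.94). Macrophage or monocyte markers summed to 129 CPM in this cluster against 33.2 CPM in the whole class, and their part was not tested.

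The last 2 mesenchymal clusters had almost no chain of their own. In the cycling Ube2c cluster (350 cells, unnamed, led by Ube2c, Birc5, Mki67, Tpx2 and Nusap1), 0 of 28 were higher, beside 5.89%, and 18 were lower, beside 11.9%, led by Col11a2 (log2 -5.15), Col24a1 (-4.98), Col8a1 (-4.06), Col4a1 (-3.74) and Col4a2 (-3.68). The Tac1 cluster (196 cells, unnamed, led by Tac1, Coch, Cxcl14, Ptprz1 and S100a6) had 1 higher, beside 2.05%, and 15 lower, beside 14.7%. The chain called higher was Col4a6, on 5 UMIs (log2 1.10, -0.62 to 2.48), an interval that includes no difference. Col11a2 (1 UMI, log2 -6.51, -11.81 to -4.03), Col24a1 (0 UMIs, a log2 bound of -4.75 by the floor of 3 counts in the cluster), Col8a1 (1 UMI, -4.58, -9.89 to -2.09), Col9a3 (2 UMIs, -3.05, -6.10 to -1.18) and Col1a1 (2003 CPM, -2.22) were lowest there. Col7a1 was highest in this cluster (24.7 CPM) and was called higher in none of the 8.

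**Figure D3:**
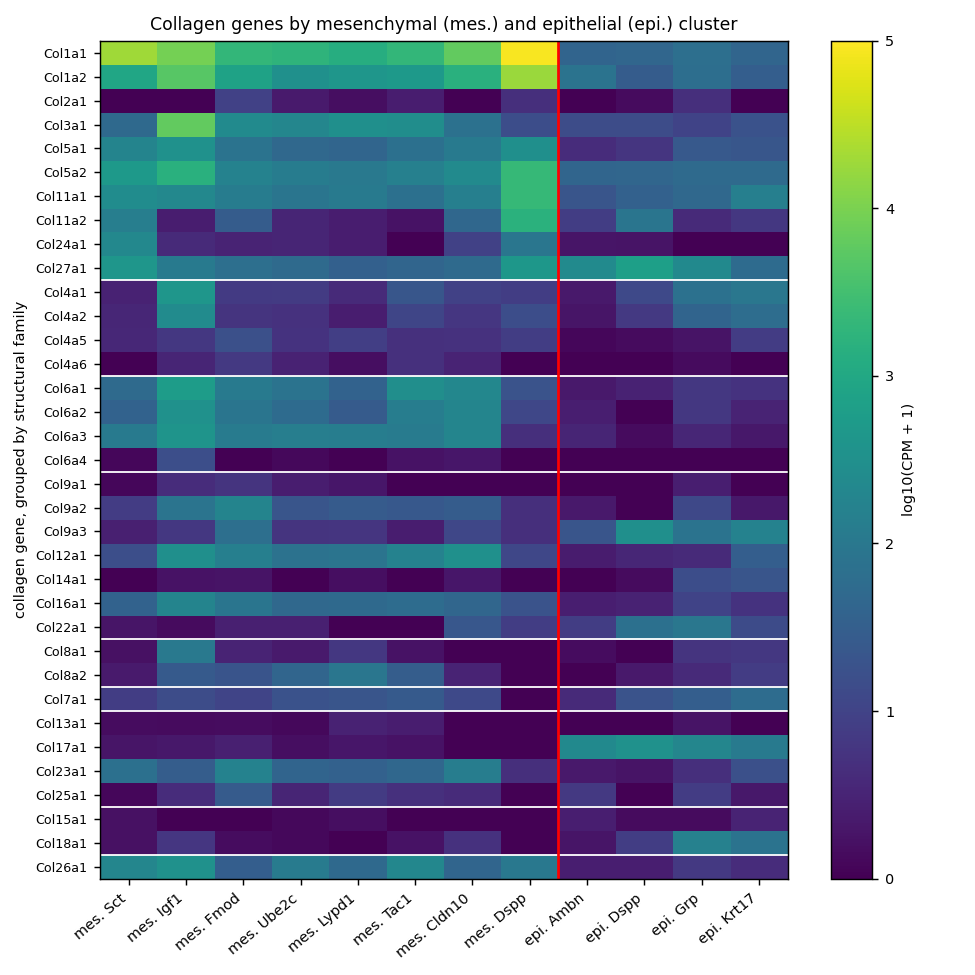
Level of the 35 collagen genes (rows, by family) in the 8 mesenchymal clusters (left of the red line) and the 4 epithelial clusters (right), as log10(CPM + 1) by colour; each column is named by the leading gene of its cluster. Col1a1 reaches 89568 CPM in the mesenchymal Dspp column, Col4a1 425 CPM in the Igf1 column and Col27a1 673 CPM in the epithelial Dspp column.

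The epithelium held 4 clusters and 21 measured collagen genes, of which 15 were higher in at least 1 cluster, beside 47.7% of all measured genes, and 18 were lower in at least 1, beside 53.5%. Col1a1, Col3a1 and Col5a2 were neither higher nor lower in any. In the cluster of secretory ameloblast genes (295 cells, led by Ambn, Acp4, Amelx, Aplp1 and Chst1) 0 of 21 were higher, beside 3.63% of all 10565 measured genes, and 14 were lower, beside 40.3%, with a median log2 ratio of -2.05 against -0.80 over all measured genes. The lowest were Col18a1 (4 UMIs, log2 -6.47), Col4a1 (5 UMIs, -5.44), Col4a2 (4 UMIs, -4.93), Col14a1 (0 UMIs) and Col22a1 (-3.35). Col17a1 was kept there at 234 CPM, and Col27a1 at 251 CPM. Ameloblast markers summed to 398318 CPM in this cluster and to 96960 CPM in the epithelial cluster led by Dspp. Totals without enamel genes were not used between clusters, so CPM rankings and calls among epithelial clusters also carry that difference.

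Another epithelial cluster was led by Dspp, Fxyd4, Fxyd3, Cyp26a1 and Cdh1 (195 cells). In it 3 of 21 were higher, beside 5.48%, and 11 lower, beside 15.6%. Col11a2 (88.7 against 5.62 CPM, log2 3.98, 3.50 to 4.49), Col9a3 (308 against 55.3 CPM, log2 2.48, 2.31 to 2.66) and Col27a1 (673 against 224 CPM, log2 1.59, 1.49 to 1.69) were higher. Col17a1 was highest in this cluster too, at 343 CPM on totals that held the enamel genes, without reaching 2-fold (log2 0.71). Its lowest chains were Col14a1 (1 UMI, log2 -4.11, -9.44 to -1.57), Col18a1 (-3.08), Col23a1 (2 UMIs, -2.19, -5.30 to -0.20), Col25a1 (0 UMIs) and Col4a2 (-1.85).

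The Grp cluster (187 cells, led by Grp, Sfrp5, Vwa2, Krt18 and Ly6h) had 9 of 21 higher, beside 29.4%, and 1 lower, beside 8.85%. The median log2 ratio of the 21 was 0.68, against 0.54 over all measured genes. Col9a2 (27 UMIs, log2 3.84, 2.53 to 5.40), Col18a1 (160 CPM, log2 3.69, 3.36 to 4.02), Col14a1 (35 UMIs, log2 2.55), Col4a1 (73.7 CPM, log2 2.23) and Col16a1 (22 UMIs, log2 2.13) led. The gene lower was Col11a2 (7 UMIs, log2 -3.53). Dental mesenchyme markers summed to 165 CPM in this cluster against 74.1 CPM in all epithelial cells, and pulp markers to 161 against 66.9 CPM, and their part was not tested. Epithelial Col18a1 was concentrated in this cluster, with 80.2% of its epithelial UMIs. The Krt17 cluster (92 cells, with Krt17, Enpp2, Dsc3 and Slc39a8 among its leading genes) had 8 higher, beside 17.6%, and 7 lower, beside 8.01%. Here the median log2 ratio was 0.50, against 0.39 over all measured genes. Col12a1 (27 UMIs, log2 3.84), Col23a1 (14 UMIs, log2 3.14), Col14a1 (18 UMIs, log2 2.34), Col4a2 (60.2 CPM, log2 2.29) and Col11a1 (143 CPM, log2 2.20) led, and Col27a1 (55.8 CPM, log2 -2.70), Col11a2 (-2.36), Col25a1 (1 UMI, -2.02, -7.36 to 0.54), Col22a1 (-1.83) and Col9a2 (1 UMI, -1.66, -7.01 to 0.92) were lowest. Markers of other cell types were also higher in the Krt17 cluster than in all epithelial cells: osteoblast markers summed to 1084 against 111 CPM (1 of 5 at 0, Spp1), chondrocyte markers to 259.5 against 62.4 CPM (4 of 6 at 0) and perivascular markers to 245 against 43.1 CPM (5 of 9 at 0, Rgs5 among them). Pulp markers summed to 242 against 66.9 CPM (2 of 5 at 0), and the part of these markers in the result was not tested.

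Chains that assemble into 1 molecule can be compared as ratios of UMIs within the same cells, which does not depend on the total. UMI ratios of different genes also carry differences in capture between the genes, so the comparison is between groups of cells and not with the ratio in the protein. Type I collagen is mostly a trimer of Col1a1, Col1a1 and Col1a2 chains. Over all mesenchymal cells there were 5.61 Col1a1 UMIs per Col1a2 UMI. The Sct cluster stood at 20.9 (20.2 to 21.5), the Igf1 cluster at 1.83 and the Dspp cluster at 5.06, so the 2 odontoblast-like clusters did not share a ratio. The other clusters lay between 2.69 (Fmod) and 5.55 (Ube2c). At the finer resolution both parts of the Sct cluster were high, with 28.3 in the part led by Lgals3 (290 cells) and 16.7 in the part led by Dmp1 (84 cells). Immune cells stood at 3.71 and droplets at 3.07. In epithelial cells the ratio was 0.822 (0.727 to 0.929), with more Col1a2 than Col1a1 UMIs. That order held in the Ambn cluster (0.506, 0.419 to 0.609), while the Dspp, Krt17 and Grp clusters stood at 1.60, 1.44 and 1.08. Only 3 of 295 Ambn cells held at least 20 type I UMIs. Epithelial Col1a1 (47.8 CPM) lay below the immune level (103 CPM), and the part of free RNA in the epithelial ratios was not tested.

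The imbalance of the Sct cluster was present cell by cell. Among its 374 cells with at least 20 type I UMIs, a limit chosen after seeing the data, Col1a2 gave a median of 3.68% of type I UMIs, 52 cells had no Col1a2 UMI and 354 were under 10%. In the Igf1 cluster the median was 35.9% and 1 of 320 such cells was under 10%. The 22 cells of the Dspp cluster had a median of 16.8%. The Col1a2 promoter window is shown as that of the pair member with a RefSeq window in the table. In the Sct cluster Col1a2 stood at 912 CPM against 1798 CPM in other mesenchymal cells (log2 -0.98, not past 2-fold), and Col1a1 at 19038 against 5360 CPM (log2 1.83), so that both chains moved the ratio and Col1a1 moved it more. Col1a2 lies on chromosome 6, 4504814 to 4541544, plus strand, by GENCODE. The RefSeq window lies wholly inside that span, so the 2 annotations place the start of the gene differently. The window spans chr6:4505368-4505667 (GRCm38.p6, plus strand, RefSeq) with both matches of CCAAT or its reverse complement ATTGG in capitals.
Col1a2: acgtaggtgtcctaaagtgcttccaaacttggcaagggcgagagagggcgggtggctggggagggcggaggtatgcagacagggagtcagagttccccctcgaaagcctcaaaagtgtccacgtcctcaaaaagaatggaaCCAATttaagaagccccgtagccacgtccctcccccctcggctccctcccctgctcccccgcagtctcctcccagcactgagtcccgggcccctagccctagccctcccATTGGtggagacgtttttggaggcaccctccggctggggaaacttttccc

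**Figure D4:**
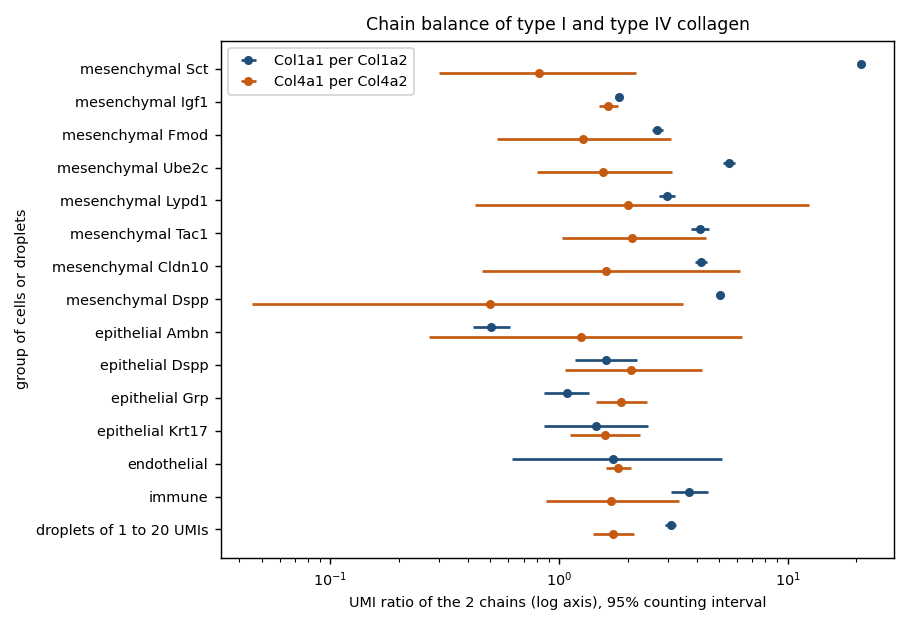
UMI ratios of Col1a1 to Col1a2 and of Col4a1 to Col4a2 (x axis, log scale) in each mesenchymal and epithelial cluster, endothelial and immune cells and droplets (y axis), with 95% counting intervals. The type I ratio runs up to 20.9 in the mesenchymal Sct cluster.

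Other pairs also shifted between groups. Over mesenchymal cells Col6a3 and Col6a1 were nearly equal (0.989 Col6a3 UMIs per Col6a1 UMI), but the ratio was 3.45 in the Lypd1 cluster, 2.20 in the Sct cluster, 0.672 in the Igf1 cluster and 0.404 in the Tac1 cluster. Col9a2 UMIs outnumbered Col9a3 UMIs in mesenchymal cells (3.98 per Col9a3 UMI) and were rare beside them in epithelial cells (0.0277). In the epithelial Dspp cluster there were 769 Col9a3 UMIs and no Col9a2 or Col9a1 UMI. Col4a5 to Col4a6 stood at 3.03 in mesenchymal cells. The ratio of Col5a1 to Col5a2 was 0.291 in mesenchymal cells and 0.219 in epithelial cells, and lowest among mesenchymal clusters in the Dspp cluster (0.137, 0.108 to 0.172). Type III to type I ranged from 0.000161 Col3a1 UMIs per Col1a1 UMI in the Dspp cluster to 0.709 in the Igf1 cluster.

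Collagen RNA was uneven between single cells of a class. The median mesenchymal cell had 0.521% of its UMIs from collagen genes and the highest 18.7%. Medians were 11.2% in the Dspp cluster (6.10 to 18.7), 2.35% in the Igf1 cluster, 1.62% in the Sct cluster and 0.771% in the Cldn10 cluster, and between 0.262% and 0.409% in the other 4. Every cell of the Dspp cluster lay above the median of each other cluster. In the epithelium the medians were 0.149% in the Dspp cluster, 0.0958% in the Grp cluster, 0.0653% in the Krt17 cluster and 0.0639% in the Ambn cluster. Endothelial cells had a median of 0.261% and immune cells of 0. The number of collagen genes seen per cell, after thinning, had a median of 5 in mesenchymal, 3 in endothelial and 1 in epithelial cells, and of 9 in the Igf1 cluster and 7 in the Dspp cluster.

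**Figure D5:**
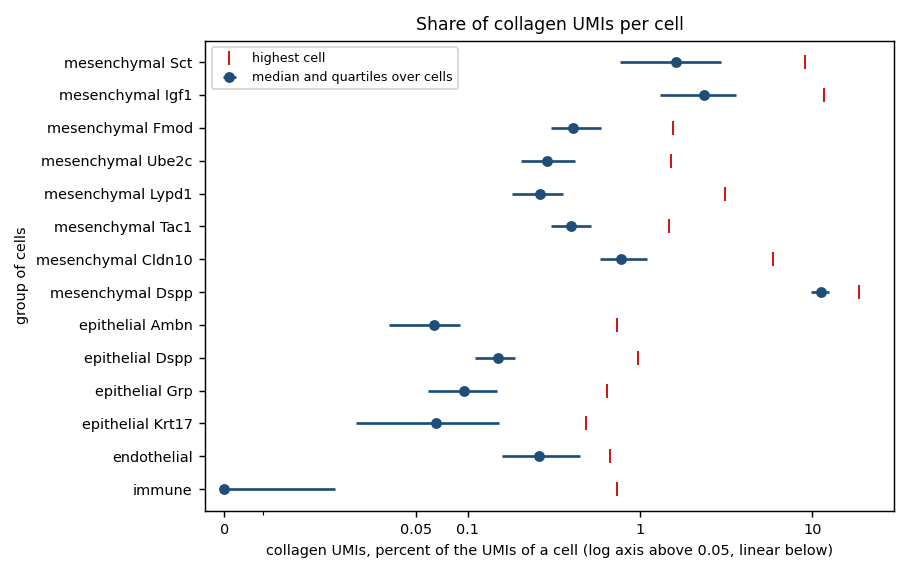
Percent of the UMIs of a cell that come from collagen genes (x axis, logarithmic above 0.05), as median and quartiles over cells with the highest cell marked, in each mesenchymal and epithelial cluster and in endothelial and immune cells (y axis). The Dspp cluster has a median of 11.2% and the immune cells a median of 0.

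A few cells carried much of some chains. Of 2197 mesenchymal cells, 101 held 50% of Col1a1 UMIs, 105 of Col3a1, 41 of Col24a1, 33 of Col8a1 and 27 of Col11a2. Col6a3 was the most evenly spread of the mesenchymal chains above 1000 UMIs, with 259 cells. Endothelial Col15a1 is less firm than its ratio, since 5 of 74 cells held 50% of its 46 UMIs and 1 cell held 19.6%. Epithelial Col14a1 likewise came from few cells (5 of 769 for 50% of 54 UMIs).

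Free RNA sets how low a level can be read. Amelx, an enamel gene that immune cells should lack, had 897 CPM in immune cells and 14928 CPM in droplets. This puts 6.01% of UMIs in immune cells at the level of free RNA, and the share was applied to every class. Ameloblast markers summed to 386 CPM in endothelial, 914 in mesenchymal, 1067 in immune and 10112 in erythroid cells. Whether the immune share holds in the other classes was not tested. With that share of the droplet profile subtracted, Col1a1 and Col3a1 were left at 0 in epithelial and endothelial cells, as were 8 of 34 detected chains in epithelial cells in all, and 3 of 18 in endothelial cells. Epithelial Col1a2 was left at 23.9 CPM and Col5a2 at 36.7 CPM. By thinned shares too, Col1a1 was no higher in epithelial or endothelial than in immune cells: 93.5% of mesenchymal cells had a UMI, 11.9% of immune, 9.09% of endothelial and 8.30% of epithelial cells (97.8%, 19.4%, 16.2% and 25.9% unthinned).

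Collagen chains pass through a shared set of enzymes and carriers. A list of 47 processing genes held these, the cross-linking enzymes, and receptors that bind or take up collagen. Of 44 measured between mesenchymal and epithelial cells, 24 were higher in mesenchymal cells and 5 lower, beside the same 20% and 10.6% of all genes, with a median log2 ratio of 1.46 (23 and 6 with reduced totals). Ddr2, a collagen receptor kinase, had the largest ratio (67.5 against 0.394 CPM, log2 7.42), followed by Lox, the oxidase that cross-links fibrils (34.6 against 0.394 CPM, log2 6.45), and Pcolce, the enhancer of procollagen cleavage (556 against 8.08 CPM, log2 6.10, 5.79 to 6.43). By step, 7 of 14 hydroxylation and glycosylation genes were higher and 1 lower, 5 and 1 of 10 for folding and export, 4 and 1 of 7 for propeptide cleavage, 3 and 0 of 5 for cross-linking, and 5 and 2 of 8 for receptors and uptake. Lower in mesenchymal cells were Tll1, a procollagen protease (3 mesenchymal UMIs, log2 -5.15, -7.46 to -3.53), the integrin Itga2 (log2 -2.74), Plod2, a lysyl hydroxylase (250 against 1618 CPM, log2 -2.69, -2.74 to -2.65), the receptor kinase Ddr1 and the export factor Mia3. Plod2 was thus higher in the class with less collagen RNA of the 2.

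In endothelial against mesenchymal cells, 4 of 42 processing genes were higher and 22 lower, beside 18.0% and 17.0% of all genes. Higher were the collagen-binding integrin Itga1 (112 against 4.01 CPM, log2 4.81), the lysyl hydroxylase Plod1 (166 against 19.8 CPM, log2 3.07), Itga2 (6 UMIs, log2 2.01, 0.51 to 3.22) and Sparc, a collagen-binding matrix protein (5349 against 1542 CPM, log2 1.79). Pcolce (log2 -4.63), Plod2 (-3.99) and the uptake receptor Mrc2 (0 UMIs, at least 14.1-fold lower) were lowest. Against epithelial cells 11 of 35 were higher and 8 lower, beside 22.3% and 15.8%, and with reduced totals 8 and 11, so the balance of these counts turned with the scale. Itga1 (log2 6.25), Sparc (4.77) and Plod1 (4.72) led upward, and Plod2 (-6.69), Ddr1 (1 UMI, -4.18, -9.49 to -1.69) and P4ha2, a prolyl hydroxylase (-3.77), downward.

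Promoter windows of RefSeq (GRCm38.p6) matched 35 of the 44 genes, 3 of them with more than 1 window. Searched on both strands, CCAAT was found in 13 of 35 genes (37.1%), beside 37.4% of all 32851 windows, and TATAAA in 5 (14.3%), beside 13.6%. GGGCGG was found in 22 (62.9%), beside 35.7%. The motifs were chosen after seeing the data, a match is a description of letters, and genes with more than 1 window count once if any window matched. Col3a1 and Col11a2 held TATAAA, Col1a2 held CCAAT and GGGCGG, and both Col4a1 and Col4a2 held CCAAT and GGGCGG.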

How the data were processed

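Per the labels' protocols, cells of mouse lower incisors were captured with 10x Genomics 3′ v3 chemistry. The deposited file is 1 unfiltered matrix of UMI counts per gene and barcode, written by software version 3.0.2 per the file headers, and the submitters' processing notes name mm10, R 3.4.1 and Seurat 3.4.1. The deposited counts carry no normalization, and were summed here by class or cluster. Nothing maps barcodes to the 2 sample titles, so the matrix is 1 sample, and cells are not replicates.

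Barcodes with at least 500 genes (5336) were kept at no more than 20% mitochondrial UMIs (4775). Removed were 122 by a doublet score above 0.15 (2.55%; the automatic threshold called 1) and 118 cells outside erythroid clusters with over 5% haemoglobin UMIs. Clustering used 2000 variable genes, 30 principal components, 15 neighbours and Leiden at resolution 1.0 (0.5 within mesenchyme), without collagen, processing and mitochondrial genes. A name needed at least 3 raised markers. Named genes are the 35 collagen genes with at least 30 UMIs, up to 5 higher and 5 lower per cluster and the 3 processing genes at each end. Ratios have exact conditional binomial intervals, shares Clopper-Pearson intervals and levels exact Poisson intervals. Alternatives were other filters, resolutions, folds, totals, weights and free RNA subtraction. Gene positions are from GENCODE M21 (GRCm38). Python 3.11.15, numpy 2.4.6, scipy 1.17.1, scikit-learn 1.9.0, scanpy 1.11.5 and leidenalg 0.10.2 were used, and the counting of calls was tested on simulated data. The collagen genes, lists and markers were chosen with earlier results of these data known.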

Additional observations from a re-analysis of the deposited data

Results flagged for a closer look

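Of the 44 collagen genes, 7 had a higher level in droplets of 1 to 20 UMIs, which the comparisons do not use, than in any of the mesenchymal, epithelial, endothelial, immune and erythroid classes, and in 5 of them the droplets held more than 3 UMIs and the 95% interval of their level lay above that class. The others were Col4a4 (3 droplet UMIs) and Col19a1 (1 droplet UMI). Col14a1, a FACIT of dense connective tissue, stood at 30.5 CPM in droplets (88 UMIs), against 5.88 CPM in immune cells, its highest class. Col2a1, the cartilage fibril chain, stood at 22.6 CPM (65 UMIs) against 1.56 CPM in mesenchymal cells. Col5a3, a fibril-regulating type V chain, stood at 21.2 CPM (61 UMIs) against 2.24 CPM in endothelial cells, which rests on 1 UMI. Col6a6 stood at 4.16 CPM (12 UMIs) against 0.167 CPM in mesenchymal cells, and Col6a5 at 2.43 CPM (7 UMIs) with 0 UMIs in every class. Which cells this RNA came from was not tested.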

How the results depend on the processing

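The share of mesenchymal UMIs from collagen genes (1.37%) was 1.27% with each cell weighted equally, 1.35% with all barcodes of the filter kept, 1.38% with at least 1000 detected genes, 1.43% at no more than 10% mitochondrial UMIs, 1.42% with free RNA subtracted and 1.16% without the Igf1 cluster (chosen after seeing the data). The epithelial share (0.113%) was 0.108% with equal weights, 0.118% with all barcodes kept and 0.104% with free RNA subtracted, and the endothelial share (0.313%) was 0.369% with all barcodes kept. Collagen genes higher in endothelial than epithelial cells numbered 13 with all barcodes kept and 3 at 100 UMIs, against 7. Processing genes higher in mesenchymal than epithelial cells numbered 15 at 4-fold, against 24, and collagen genes higher in an epithelial cluster 24 at 10 UMIs, against 15, since that setting measured more genes. The cause was not tested for the other shifts. Without the Igf1 cluster the log2 ratio of mesenchymal to epithelial cells was -2.31 for Col4a1, -2.01 for Col4a2 and -0.11 for Col8a1. Of 66 collagen ratios, none changed sign at resolution 0.5 or 2.0, with 1000 genes or with collagen genes kept in the clustering, while 2 did with all barcodes kept, 2 with equal weights, 1 with reduced totals and 1 of 62 at 10% mitochondrial UMIs. Of 105 shares of cells with a UMI, 83 were higher before thinning. Depth limits the endothelial values most, where 0 UMIs allows 6.73 CPM. No paired analysis was possible because the 2 titles share 1 matrix with no map from barcodes to titles, and no result comes from a test.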

Other observations

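Immune cells had a little RNA of chains that mesenchymal cells carried at low levels. Of 24 immune Col15a1 UMIs, 23 lay in the 789 cells of the macrophage or monocyte type (6.25 CPM), and all 31 immune Col14a1 UMIs lay there too (8.42 CPM). That type held 3681160 of the 5270400 immune UMIs of all genes. Col15a1, a vessel basement membrane chain, stood at 0.278 CPM in mesenchymal cells, and Col14a1 at 0.334 CPM. Epithelial cells had 1.08 CPM of Col15a1 and 5.32 CPM of Col14a1 (54 UMIs), and endothelial cells 103 CPM of Col15a1. Droplets of 1 to 20 UMIs had 18.7 CPM of Col15a1 and 30.5 CPM of Col14a1, and the part of free RNA in these immune levels was not tested.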
